A study of Solanum lycopersicum with 12 samples.

Results

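The genes described here are 10 tomato (Solanum lycopersicum) genes of ethylene synthesis and perception. Of these, 3 are listed as ACC oxidases, 5 as ethylene receptors, 1 as EIN2 and 1 as CTR1. A row belongs to the set when its ID before the dot is on the list; the rule uses no measured value, though the list was drawn up with earlier results of these data known. All 10 were found among the 34075 IDs of the count table, and all 10 passed the filter on low counts that left 21424 genes for testing. The table does not pair IDs with names, and none of its IDs is found in RefSeq's gene table (0 of 41476 entries). Each role given below is therefore the role under which the ID is listed, from general knowledge of the tomato gene families, and Never-ripe, which the list counts among its receptors, is not paired with 1 ID here. For each of the 10, the RefSeq table has an entry of the listed family on the chromosome that the ID's number names, which does not itself pair the entry with the ID.

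Wild-type seedlings were taken whole. They had been moved to liquid medium 3 days after germination and grown there for 8 days; the chamber stood at 22 °C in a cycle of 16 h light and 8 h dark. For the last 3 h the fresh medium held 0.1% DMSO (mock), abscisic acid (ABA, a stress hormone) at 10 µM, or iSB09 at 20 µM; the series asks whether the latter, a compound other than the hormone, switches on genes that respond to ABA. Each group has 3 libraries, called independent biological replicates in the series' design text without further detail. DMSO is recorded for mock only, so a difference in solvent and the treatment cannot be told apart. A further treatment, 10 µM iCB, is not analysed here.

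Ethylene is a gaseous hormone made from methionine. S-adenosylmethionine synthetase and ACC synthase lead to the precursor ACC, and ACC oxidase turns ACC into ethylene. The receptors sit in the membrane of the endoplasmic reticulum and act as negative regulators: as worked out mainly in Arabidopsis, without ethylene they keep the kinase CTR1 active, and CTR1 holds EIN2 inactive by phosphorylation. When ethylene binds, this block is lifted, a fragment of EIN2 reaches the nucleus, the EIN3-like transcription factors escape destruction through EBF F-box proteins, and genes of ethylene response factors are switched on. In tomato the pathway is best known for fruit ripening, and the Never-ripe mutation of a receptor leaves plants insensitive to ethylene.

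Total counts per library lay between 21863058 and 22098966. Levels below are CPM, counts scaled to TMM library size, with the SD of 3 libraries. The table gives no transcript length, so levels of different genes are not compared. A gene is said to rise or fall when edgeR's quasi-likelihood test gave an adjusted p (Benjamini-Hochberg over all 21424 genes) under 0.05. On the second principal component of log2 CPM, mock replicate 3 (-31.2) and iSB09 replicate 2 (45.5) stood at opposite ends, and values without them are given where they change a call of the 10 genes or move a difference from mock by more than 0.2 on the log2 scale. The 3 ABA-response markers listed as a check of treatment summed to between 43.3 and 45.8 CPM in mock, 882 and 1065 CPM in ABA, and 235 and 306 CPM in iSB09 libraries. Of 8 photosynthesis genes, which mark the shoot, 0 changed in any of the 3 comparisons (0 also at an unadjusted p under 0.05). Their summed level lay between 22660 and 30940 CPM in mock, 22980 and 31230 CPM in ABA, and 23550 and 31890 CPM in iSB09.

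Among the listed ACC oxidases, Solyc12g005940.2 fell after ABA to about 0.511 of its mock level, and it was the only 1 of the 10 genes that changed in any comparison. Its level was 37.8, 43.4 and 25.4 CPM in mock replicates 1 to 3, 19.9, 17.0 and 17.5 CPM in ABA, and 31.5, 24.4 and 26.2 CPM in iSB09. Every ABA library was below every mock library and every iSB09 library, while the mock and iSB09 ranges overlapped. Group means were 35.5 ± 9.22 CPM in mock, 18.1 ± 1.55 CPM in ABA and 27.4 ± 3.70 CPM in iSB09 (SD, n = 3). ABA minus mock was -0.97 ± 0.18 on the log2 scale (SE; adjusted p = 0.0028), and over all alternatives run this value lay between -1.16 and -0.80 with an adjusted p of at most 0.018. In RNA from whole seedlings, fewer cells of a type and less RNA per cell cannot be told apart. For iSB09 against mock the log2 fold change was -0.37 (95% interval -0.76 to 0.01, adjusted p = 0.27). Without mock replicate 3, the lowest of the mock libraries, it was -0.57 (adjusted p = 0.035). With iSB09 replicate 2 left out as well, it did not pass. Over all alternatives run it lay between -0.57 and -0.20.

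Solyc02g081190.4, also listed as an ACC oxidase, had almost the same mean in all groups. Its level was 202, 264 and 353 CPM in mock replicates 1 to 3, 284, 265 and 290 CPM in ABA, and 286, 211 and 327 CPM in iSB09. The highest and lowest of the 9 values were both mock libraries, and the ABA values lay within the mock range. Means were 273 ± 76.0, 280 ± 13.2 and 275 ± 58.4 CPM in mock, ABA and iSB09. The log2 fold change was 0.04 for ABA against mock (95% interval -0.40 to 0.48; adjusted p = 0.93) and 0.01 for iSB09 against mock (-0.43 to 0.45; adjusted p = 0.99). Without mock replicate 3 these values were 0.27 and 0.24 (adjusted p = 0.36 and 0.50), and with iSB09 replicate 2 left out as well, the latter was 0.40 (adjusted p = 0.16).

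Solyc07g049530.3, the last of the listed ACC oxidases, differed most within the ABA group. It was at 16.1, 23.7 and 16.1 CPM in mock replicates 1 to 3, 29.8, 14.2 and 9.33 CPM in ABA, and 15.3, 11.9 and 23.2 CPM in iSB09. The ABA libraries thus hold both the highest and the lowest of the 9 values. Behind them are 671, 307 and 195 counts, so the ABA range of 3.2 times is far wider than counting error, and it was wider than that of 99.5% of genes with a mean of at least 1 CPM. The log2 fold change of ABA against mock was -0.06 (95% interval -0.89 to 0.76; adjusted p = 0.93), or from 0.541 to 1.69 times the mock level. Without ABA replicate 1 it was -0.66, and without ABA replicate 3 it was 0.24, neither of which passed. For iSB09 against mock it was -0.15 (-0.97 to 0.68; adjusted p = 0.86), and 0.05 without iSB09 replicate 2 (adjusted p = 0.97). A neighbouring ID, Solyc07g049550.3, is listed in the same family. Reads from near-identical copies may have been divided between such IDs in ways the table does not show.

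**Figure D1:**
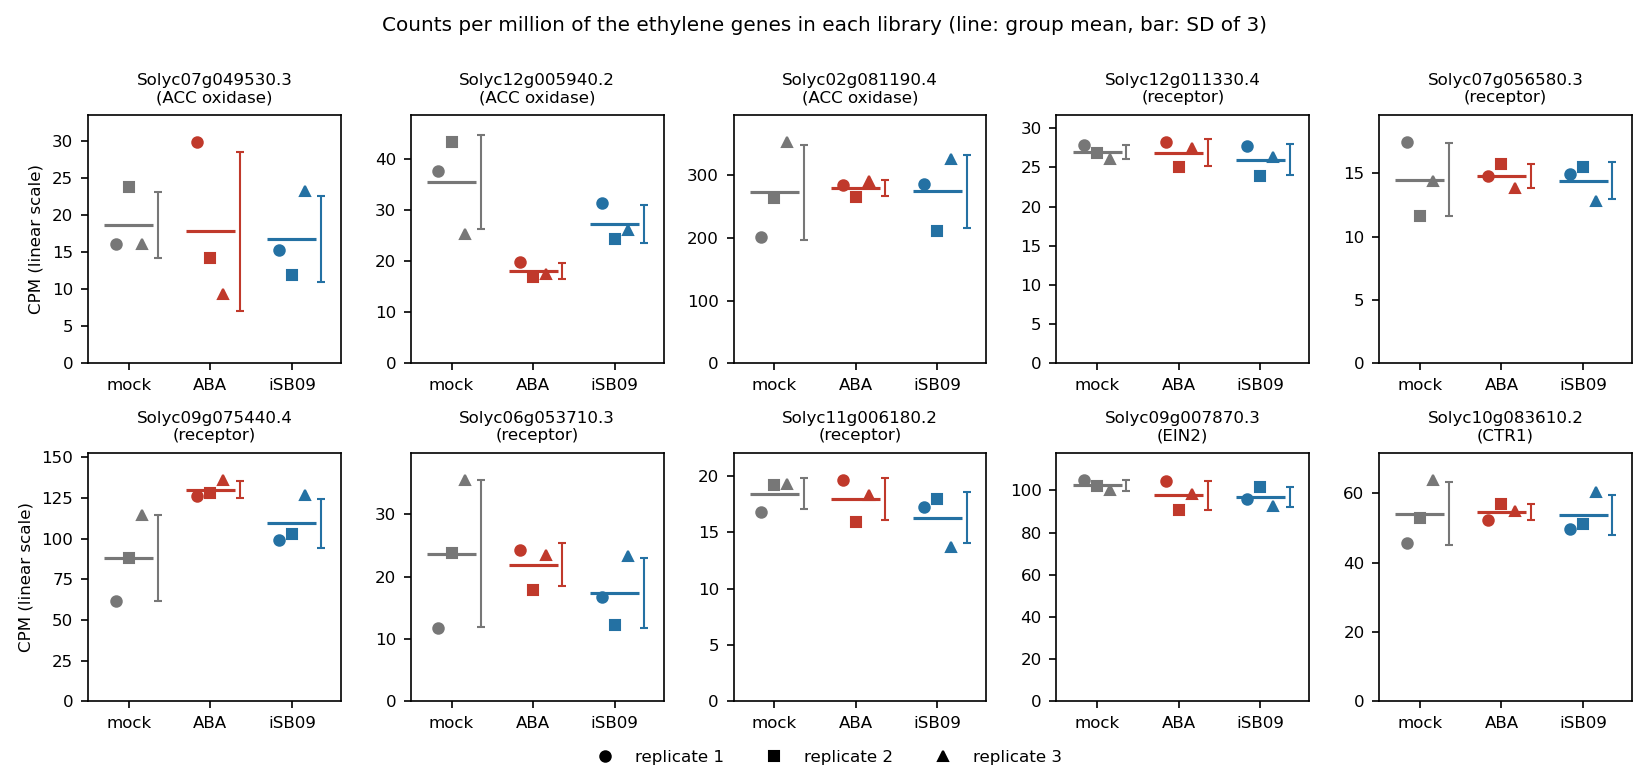
Level of each of the 10 ethylene genes in CPM (linear axis from 0) in the 9 libraries, grouped as mock, ABA and iSB09; symbols are replicates, lines are group means and bars the SD of 3 libraries. In the panel of Solyc12g005940.2 the ABA libraries, at 17.0 to 19.9 CPM, lie below all others, and in that of Solyc09g075440.4 they lie above all mock libraries.

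Of the 5 listed receptors, 0 passed the test after ABA (1 was higher before adjustment, at p under 0.05, and the same number was higher in DESeq2 and in limma voom). That receptor was Solyc09g075440.4. It stood at 61.9, 88.2 and 114 CPM in mock replicates 1 to 3, 127, 128 and 136 CPM in ABA, and 98.9, 103 and 127 CPM in iSB09. Every ABA library was above every mock library, the ABA libraries were close together, and the mock libraries were spread over 1.85 times. The means were 88.2 ± 26.2 CPM in mock, 130 ± 5.05 CPM in ABA and 110 ± 15.0 CPM in iSB09, so that iSB09 was between the other groups. For ABA against mock the log2 fold change was 0.56 (95% interval 0.15 to 0.97; unadjusted p = 0.012, adjusted p = 0.057). Without mock replicate 3 it was 0.79 and passed (adjusted p = 0.0067), and it also passed with DESeq2 (0.02), limma voom (0.044) and no filter on low counts (0.047). Without mock replicate 1 it was 0.36, and adjusted p reached 0.15 among the fits with 1 library left out. For iSB09 against mock it was 0.31 (-0.10 to 0.72; adjusted p = 0.38), and 0.54 without mock replicate 3 (adjusted p = 0.094).

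Solyc06g053710.3 was the most variable receptor. It was at 11.8, 23.8 and 35.4 CPM in mock replicates 1 to 3, 24.2, 17.9 and 23.5 CPM in ABA, and 16.7, 12.2 and 23.3 CPM in iSB09. The mock libraries differed by 3.01 times, more than 98.3% of genes with a mean of at least 1 CPM, and both other groups fell within the mock range. The log2 fold change was -0.12 for ABA against mock (95% interval -0.85 to 0.62; adjusted p = 0.85) and -0.44 for iSB09 against mock (-1.19 to 0.30; adjusted p = 0.50). Over the alternatives run, the ABA value moved between -0.44 and 0.30 and the iSB09 value between -0.77 and 0.17, so the direction of both depends on which libraries are used. Without mock replicate 3 they were 0.30 and -0.03, and with iSB09 replicate 2 left out as well, the iSB09 value was 0.17 (adjusted p = 0.78).

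Group means of the remaining receptors lay close together. Solyc12g011330.4 stood at 27.9, 26.9 and 26.1 CPM in mock, 28.2, 25.0 and 27.5 CPM in ABA, and 27.8, 23.9 and 26.4 CPM in iSB09, with overlap of all groups. Its log2 fold change after ABA was 0.00 on rounding, with a 95% interval of fold from 0.869 to 1.15 times, and after iSB09 it was -0.05 (0.840 to 1.11 times). Solyc07g056580.3 stood at 17.5, 11.7 and 14.4 CPM in mock, 14.8, 15.7 and 13.9 CPM in ABA, and 15.0, 15.6 and 12.8 CPM in iSB09, with means of 14.5 ± 2.91, 14.8 ± 0.929 and 14.4 ± 1.45 CPM. Its mock libraries were spread over 1.5 times, wider than 80.7% of genes with a mean of at least 1 CPM, and held all ABA and iSB09 values. Solyc11g006180.2 stood at 16.8, 19.2 and 19.3 CPM in mock, 19.6, 15.9 and 18.3 CPM in ABA, and 17.2, 18.0 and 13.7 CPM in iSB09, with means of 18.4 ± 1.41, 17.9 ± 1.87 and 16.3 ± 2.26 CPM and overlap of all groups. Neither passed in any comparison, and the largest difference of either was that of Solyc11g006180.2 after iSB09, a log2 fold change of -0.18 (95% interval -0.46 to 0.10; adjusted p = 0.46). Summed over the 5 receptors, the level was 136 to 210 CPM in mock, 203 to 219 CPM in ABA and 172 to 203 CPM in iSB09. The mean of this sum was 172 CPM in mock and 212 CPM in ABA. It follows Solyc09g075440.4, which did not pass and whose own means were 88.2 and 130 CPM.

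The listed EIN2 gene, Solyc09g007870.3, whose product carries the signal onward from the receptors, was the steadiest of the set in mock. Its level was 105, 102 and 100.0 CPM in mock replicates 1 to 3, 104, 90.5 and 98.1 CPM in ABA, and 95.8, 102 and 92.7 CPM in iSB09. The groups overlapped, and the mock range of 1.05 times was narrower than that of all but 3.42% of genes with a mean of at least 1 CPM. The log2 fold change was -0.07 after ABA (95% interval of fold 0.838 to 1.09 times; adjusted p = 0.64) and -0.08 after iSB09 (0.830 to 1.08 times; adjusted p = 0.63). For the listed CTR1 gene, Solyc10g083610.2, which encodes the kinase that represses the pathway, the level was 45.6, 52.9 and 63.8 CPM in mock, 52.3, 56.8 and 54.9 CPM in ABA, and 49.8, 51.2 and 60.3 CPM in iSB09. All ABA and iSB09 values lay within the mock range. Its log2 fold change was 0.01 after ABA (0.836 to 1.22 times; adjusted p = 0.95) and -0.01 after iSB09 (0.822 to 1.20 times; adjusted p = 0.98).

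Counted together, 1 of the 10 genes fell and 0 rose after ABA (1 higher before adjustment, at p under 0.05, and 1 higher in DESeq2 and in limma voom). Over all genes tested, 19.7% were called in this comparison, 9.76% as higher and 9.9% as lower, so the share of 10% called in the set is not above the background. Before adjustment, at p under 0.05, 3276 of the 21424 genes tested were higher and 3575 lower after ABA. The median log2 fold change of the 10 was -0.02, against 0.00 over all genes. Libraries of ABA and mock did not overlap for 2 of the 10, against 38.3% of all genes. After iSB09, 0 of the 10 changed with edgeR (0 before adjustment, at p under 0.05, and 0 in DESeq2 and in limma voom). The background was 5.11% called, 2.63% higher and 2.48% lower. Before adjustment, 2062 of the 21424 genes tested were higher and 2192 lower after iSB09. The median log2 fold change of the 10 was -0.07, and libraries did not overlap for 0 of the 10, against 22.5% of all genes. The same mock libraries served both comparisons, so their values are not independent.

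**Figure D2:**
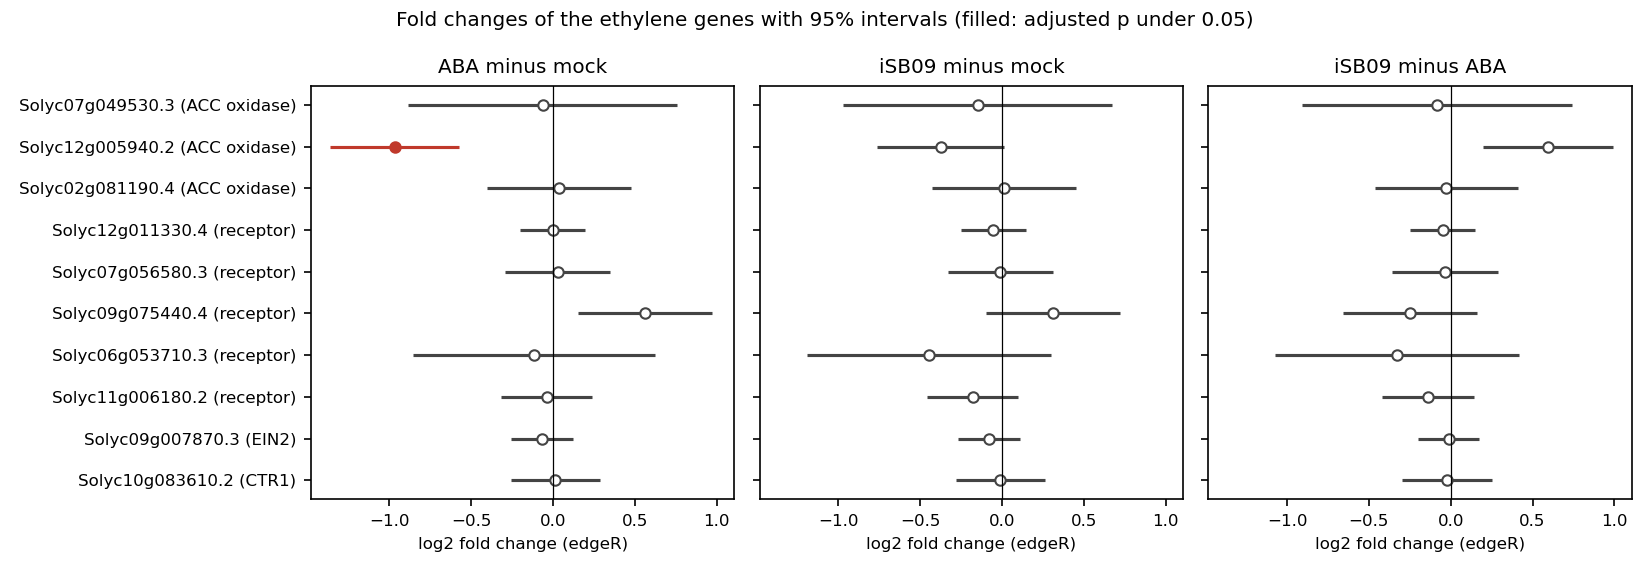
Log2 fold change of each ethylene gene from the edgeR fit in the 3 comparisons, with its 95% interval; filled points passed an adjusted p of 0.05. Solyc12g005940.2 in ABA minus mock, at -0.97, is the filled point, and the intervals of Solyc12g011330.4, Solyc09g007870.3 and Solyc10g083610.2 are among the narrowest.

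Set directly against ABA, iSB09 was given at another dose, 20 µM rather than 10 µM. With edgeR, 0 of the 10 genes passed, against 5.87% of all genes called, 1.76% higher and 4.1% lower in iSB09. Before adjustment, at p under 0.05, 1 of the 10 was higher in iSB09, against 1400 higher and 2060 lower of the 21424 genes tested. DESeq2 called 1 of the 10 higher and limma voom 0. The member higher before adjustment was the ACC oxidase Solyc12g005940.2, by 0.59 on the log2 scale (95% interval 0.20 to 0.99, adjusted p = 0.09). Its iSB09 and ABA libraries did not overlap, which held for 1 of the 10 and for 23.1% of all genes. It passed without mock replicate 3 (adjusted p = 0.015), with DESeq2 (0.032), and in a fit of the iSB09 and ABA libraries alone (0.021). For the receptor Solyc09g075440.4 the log2 fold change was -0.25 (-0.66 to 0.16; adjusted p = 0.61). For EIN2 it was -0.01, with a 95% interval of fold from 0.870 to 1.13 times, and for CTR1 -0.02, from 0.814 to 1.19 times.

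Several of these genes shared an order of libraries within a group, which was picked out after their values had been seen. Mock replicate 1 was the lowest and mock replicate 3 the highest library for 5 of the 10 genes: the ACC oxidase Solyc02g081190.4, the receptors Solyc09g075440.4, Solyc06g053710.3 and Solyc11g006180.2, and CTR1 Solyc10g083610.2. The same arrangement held for 19 of the 44 other listed pathway genes that were tested, and for 17.6% of all genes tested. Both listed EBF F-box genes were among the 19, with Solyc12g009560.2 at 94.8, 127 and 203 CPM and Solyc07g008250.3 at 82.5, 128 and 201 CPM in mock replicates 1 to 3. So was Solyc03g111720.3, listed as an ethylene-responsive ripening gene, at 21.5, 53.2 and 71.9 CPM. These genes are examples picked from the 19. Another order, mock replicate 3 lowest and mock replicate 2 highest, held for 10 of the 44 pathway genes. It held for 2 of the 10 members and for 17.2% of all genes. Summed photosynthesis markers in the same libraries were at 26840, 30940 and 22660 CPM, and the 3 listed root markers at 147, 178 and 135 CPM; their part in the pattern was not tested. The ABA libraries held an order about as frequent as that with mock replicate 1 lowest and mock replicate 3 highest. ABA replicate 2 was the lowest and ABA replicate 1 the highest for 5 of the 10 genes, for 17 of the 44 pathway genes and for 18.1% of all genes; the members were the ACC oxidase Solyc12g005940.2, the receptors Solyc12g011330.4, Solyc06g053710.3 and Solyc11g006180.2, and EIN2 Solyc09g007870.3.

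**Figure D3:**
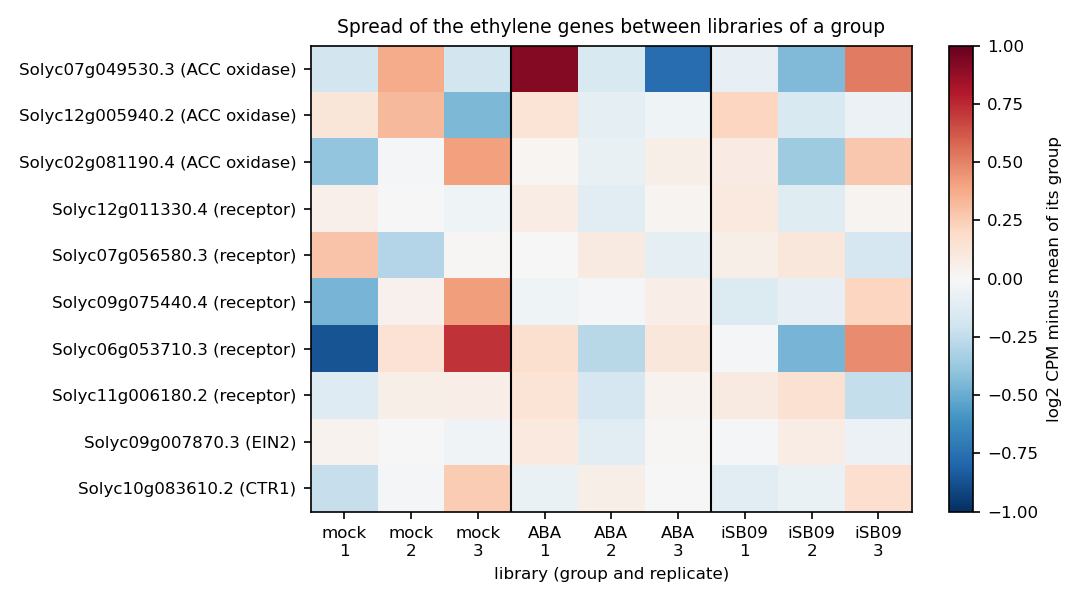
Each cell gives the log2 CPM of an ethylene gene in a library minus the mean of that library's group (red above, blue below), for 9 libraries. In mock, replicate 1 is blue and replicate 3 red for Solyc02g081190.4, Solyc09g075440.4, Solyc06g053710.3 and Solyc10g083610.2, while the rows of Solyc12g011330.4 and Solyc09g007870.3 are pale throughout.

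The rest of the pathway, before and after the steps of these 10 genes, was read from further lists. Of 54 other listed pathway genes, 53 were in the table and 44 were tested; 5 rose and 7 fell after ABA, 27.3% of those tested against 19.7% of all genes, with a median log2 fold change of -0.15 against 0.00. The number that rose was 3 without ABA replicate 1, and the number that fell was 4 without mock replicate 2. After iSB09, 1 rose and 1 fell, 4.55% against 5.11% of all genes; without mock replicate 2, 0 fell. These IDs too carry roles from general knowledge, and the list was drawn up with earlier results of these data known.

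On the synthesis side, 3 S-adenosylmethionine synthetases, which make the substrate of ACC synthase and of many methyl transfers, were tested. Of these, 1 fell after both compounds, where 9.9% of all genes were called lower after ABA and 2.48% after iSB09. The others did not pass, with log2 fold changes of -0.20 and -0.33 after ABA (adjusted p = 0.57 and 0.22). After iSB09 theirs were -0.34 and -0.38 (adjusted p = 0.4 and 0.26). The gene that fell was Solyc12g099000.3. Its mean was 505 ± 55.4 CPM in mock, 296 ± 35.3 CPM in ABA (log2 fold change -0.77 ± 0.12, SE; adjusted p = 0.0011), and 322 ± 17.4 CPM in iSB09 (-0.65 ± 0.12; adjusted p = 0.011, and 0.051 without mock replicate 2). Of 7 ACC synthases with a row, 3 were tested and 1 rose after ABA. That gene, Solyc08g081550.4, went from 19.3 ± 1.76 to 27.9 ± 5.71 CPM, which is 0.53 ± 0.15 on the log2 scale (adjusted p = 0.033). It no longer passed with mock replicate 2 or 3 left out (adjusted p = 0.081 and 0.098), without ABA replicate 1 or 2 (0.13 and 0.058) and with library totals (0.053). Of 4 further ACC oxidases, all tested, 1 fell after ABA and 0 after iSB09. Before adjustment, at p under 0.05, 3 were lower after ABA and 1 after iSB09, against 3575 and 2192 of all 21424 genes. After ABA all 4 log2 fold changes were below 0, from -2.35 to -0.03, with a median of -1.10. Of all genes, 10832 were below 0. The value of -0.03 was that of Solyc02g036350.3, with a mean of 1148 CPM in mock and 1128 CPM in ABA. Solyc07g049550.3 (-1.19, adjusted p = 0.053) was at 7.83, 14.2 and 26.0 CPM in mock replicates 1 to 3. Its ABA and mock libraries overlapped. The gene at -2.35 was at 20.1 CPM in mock replicate 3 but 1.55 and 2.05 CPM in mock replicates 1 and 2. The gene called, Solyc06g060070.3, was at 10.0 ± 1.28 CPM in mock and 4.95 ± 1.02 CPM in ABA. Its log2 fold change was -1.02 ± 0.23 (adjusted p = 0.0093). Among all member and pathway genes tested, this gene and the response factor Solyc06g082590.1 followed the pattern of the member Solyc12g005940.2 most closely, with Pearson correlations of log2 CPM over the 9 libraries of 0.82 and 0.83 and Spearman correlations of 0.83 and 0.80. These are descriptions over libraries that share groups, among 53 candidates.

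On the signalling side, 0 of the 3 genes listed as further receptors or Green-ripe, 0 of 2 further CTR kinases, 0 of 4 EIN3-like factors and 0 of 2 EBF genes changed with edgeR after ABA or after iSB09, and 0 of these 11 did so at an unadjusted p under 0.05. At that unadjusted level, 3276 of all 21424 genes were higher and 3575 lower after ABA, and 2062 higher and 2192 lower after iSB09. The ethylene response factors, the transcription factors at the end of the pathway, held calls in both directions after ABA. Of 26 with a row, 21 were tested; 3 rose and 5 fell after ABA, and 0 changed after iSB09 (2 higher and 2 lower at an unadjusted p under 0.05). The share called after ABA was 38.1% of the list, against 19.7% of all genes, and 0% after iSB09, against 5.11%. Those that fell include the neighbouring IDs Solyc05g052030.1, Solyc05g052040.1 and Solyc05g052050.1, each lowest in ABA replicate 2. These may not count as separate results. The ABA calls of Solyc05g052030.1, Solyc12g056590.2 and Solyc06g082590.1 ended in some fits with 1 library left out. Solyc07g053740.1 rose from 44.6 ± 5.43 to 83.9 ± 11.4 CPM after ABA, or 0.91 ± 0.12 on the log2 scale (adjusted p = 3e-04). Solyc04g014530.1 rose too (log2 fold change 1.51 ± 0.29, SE; adjusted p = 0.0036), at a low level of 0.984 CPM in mock. Solyc03g093610.1 fell from 12.8 ± 2.02 to 5.68 ± 1.59 CPM, with -1.17 ± 0.21 as log2 fold change (adjusted p = 0.0025). Solyc05g052040.1 had -0.86 ± 0.18 (adjusted p = 0.0061), and Solyc05g052050.1 had -0.97 ± 0.24 (adjusted p = 0.016, and 0.073 without mock replicate 2).

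The largest change among all 54 tested member and pathway genes was in Solyc09g089580.4, listed as a ripening gene that ethylene induces in fruit. It stood at 5.33, 7.00 and 8.61 CPM in mock, 68.6, 64.6 and 61.9 CPM in ABA, and 19.3, 21.6 and 18.9 CPM in iSB09. The 3 groups did not overlap, and iSB09 was between the others. The log2 fold change was 3.22 ± 0.15 after ABA (adjusted p = 2.2e-07) and 1.51 ± 0.15 after iSB09 (adjusted p = 2e-04). It was lower in iSB09 than in ABA by a log2 difference of -1.71 ± 0.14 (adjusted p = 8e-05). The other gene of this list, Solyc03g111720.3, had log2 fold changes of 0.24 and -0.01 and did not pass. Of the 44 pathway genes, 3 were lower and 0 higher in iSB09 than in ABA, 6.82% of those tested against 5.87% of all genes (4.1% lower). Before adjustment, at p under 0.05, 5 were higher and 6 lower, against 1400 and 2060 of all 21424 genes. DESeq2 called 2 higher and limma voom 0. Besides Solyc09g089580.4, those called lower were the response factors Solyc04g014530.1 (-1.33 ± 0.29, adjusted p = 0.019) and Solyc12g056590.2 (-1.01 ± 0.23, adjusted p = 0.026). The former call ended without ABA replicate 1 or 2 or iSB09 replicate 3 (0.081, 0.066 and 0.068), and the latter without ABA replicate 1 or 3 or iSB09 replicate 1 or 2 (0.12, 0.064, 0.053 and 0.062).

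A root marker and several clock genes changed with treatment beside these results. The summed level of 3 root markers was 135 to 178 CPM in mock, 63.0 to 74.5 CPM in ABA and 63.8 to 109 CPM in iSB09. It was carried by the listed phosphate transporter Solyc09g090070.1, the only root marker of 2 tested that fell, at -1.44 ± 0.20 on the log2 scale after ABA (adjusted p = 0.00038) and -0.94 ± 0.19 after iSB09 (adjusted p = 0.018). The other tested root marker, Solyc01g094910.3, did not pass: it was at 10.9 ± 3.65 CPM in mock, 14.7 ± 3.21 CPM in ABA and 9.78 ± 1.92 CPM in iSB09, with log2 fold changes of 0.43 (adjusted p = 0.27) and -0.16 (adjusted p = 0.77). The summed root level thus follows 1 gene. The listed iron transporter Solyc02g069200.3 was at 0.433 CPM or less in every library and was not tested. Of 4 clock genes 3 rose after ABA and 3 after iSB09, and their summed level was 476 to 531 CPM in mock, 757 to 797 CPM in ABA and 542 to 737 CPM in iSB09. Their part in the results above was not tested.

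**Figure D4:**
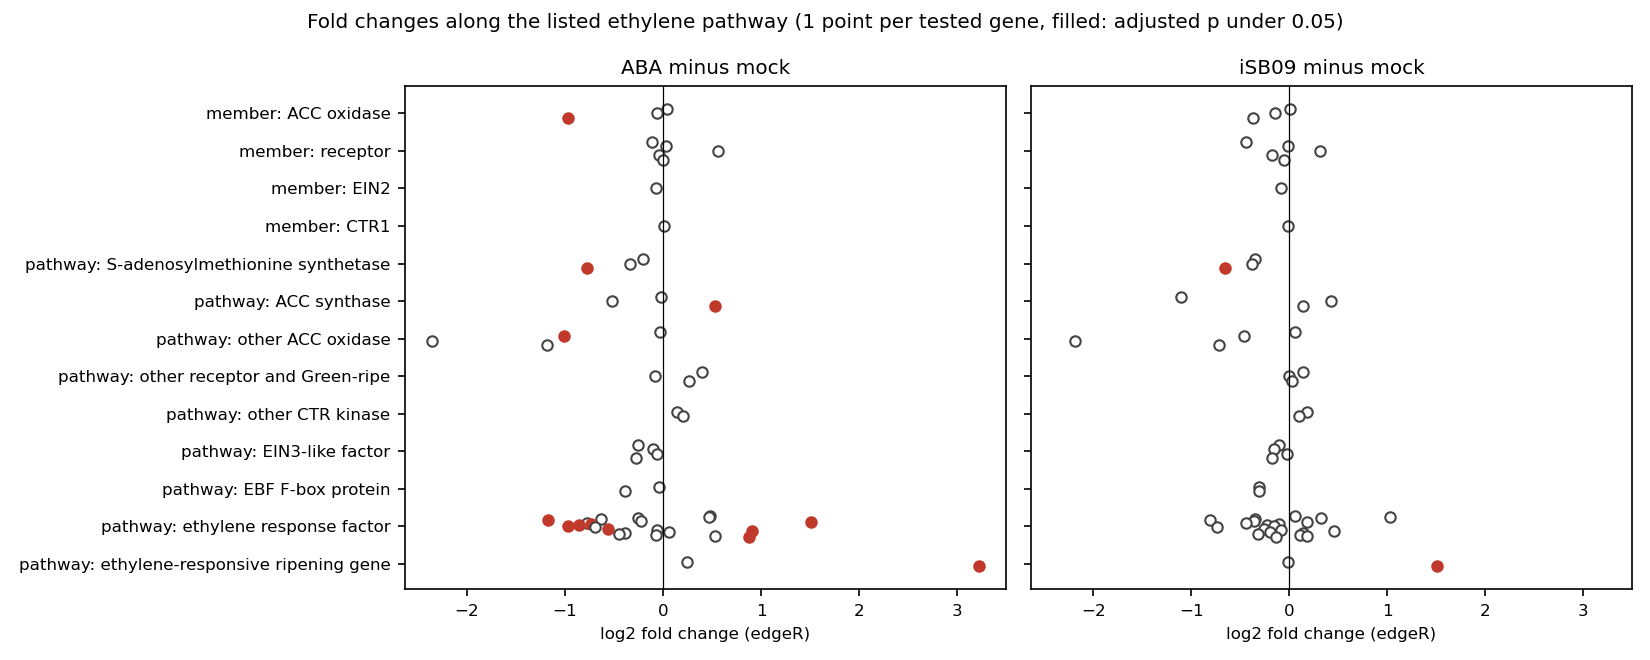
Log2 fold change from the edgeR fit for each tested gene of the listed ethylene pathway, ordered from the 10 member genes at the top to the other lists, in ABA minus mock (left) and iSB09 minus mock (right); filled points passed an adjusted p of 0.05. The ripening gene Solyc09g089580.4 lies farthest right in both panels, at 3.22 and 1.51, and the receptor, EIN2 and CTR1 rows hold no filled point.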

How the data were processed

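The authors deposited 1 table of read counts per gene ID, taken here as raw because the column totals are whole numbers that differ between libraries. The totals lie close together, between 21863058 and 22098966, and whether counts were brought to a like depth beforehand was not tested. FastQC, cutadapt, STAR and DESeq2 appear, without versions, in the submitters' processing notes; the build, annotation, counter and strand setting are not stated in what was used here. Columns were matched to samples by name: 9 columns of mock, ABA and iSB09 were used, and 3 columns whose name occurs in no label were not, so iCB, planned for, is not analysed here. All 9 libraries entered 1 fit in edgeR 4.0.16 (R 4.3.3): filterByExpr, TMM, glmQLFit and glmQLFTest, 1 coefficient per group, no replicate term, two-sided, with Benjamini-Hochberg adjustment over 21424 genes; the common biological coefficient of variation was 0.14. The script was tested on simulated counts. SEs come from the F statistic, and 95% intervals use its degrees of freedom. Log2 CPM used a prior count of 2.

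Alternatives were median-of-ratios factors, library totals, DESeq2 1.42.0, limma 3.58.1 voom, other filters, a replicate block, only the groups compared, and each library left out. Named were all 10 genes, and of the other pathway lists those past the threshold, up to 3 per list by adjusted p (5 for response factors). Outside this rule, Solyc06g082590.1 was named for its correlation and Solyc05g052030.1 for its neighbouring ID. Solyc12g009560.2, Solyc07g008250.3, Solyc03g111720.3, Solyc07g049550.3 and Solyc02g036350.3, which passed in no comparison, were named as well. Members and lists were chosen with earlier results of these data known. P-values judge a difference between groups against the spread between these libraries. Every pair of libraries of 1 group differed by more than counting noise (chi-square over degrees of freedom from 7.465 to 28.48).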

Additional observations from a re-analysis of the deposited data

How the results depend on the processing

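Of 540 recomputed log2 fold changes of the 10 genes (30 results under 18 alternatives), 529 stayed on their side of the threshold, 0 called values were lost or reversed, and 11 became calls. These were Solyc09g075440.4 after ABA, and Solyc12g005940.2 in iSB09 against mock or ABA. Genes of the set higher after ABA, 0 in the report, numbered 1 with DESeq2, limma voom, no low-count filter or the replicate block, and 1 with both mock replicate 3 and iSB09 replicate 2 left out, an alternative chosen after seeing the data. Higher in iSB09 than in ABA, 0 in the report, 1 passed with DESeq2, with only the 2 groups compared and with both libraries left out. With 1 library left out, 0 to 1 were higher after ABA, 0 to 1 lower after iSB09 and 0 to 1 higher in iSB09 than in ABA.

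Of the other pathway genes, 2 rose after iSB09 with DESeq2, and 2 fell with DESeq2, limma voom, library totals, no low-count filter or only the 2 groups compared. Higher in iSB09 than in ABA were 1 with library totals and 2 with DESeq2. With 1 library left out, 3 to 5 rose and 4 to 8 fell after ABA, 1 to 2 rose and 0 to 2 fell after iSB09, and 1 to 4 were lower in iSB09 than in ABA. Over all genes, leaving out 1 library gave 1288 to 2361 lower after ABA (2120 in the report), 245 to 651 lower after iSB09 (531), and 181 to 406 higher (378) and 517 to 906 lower (879) in iSB09 than in ABA; 319 were lower after iSB09 when only the 2 groups compared were fitted. The cause was not tested. Scaling moved the median of all genes by less than 0.1 on the log2 scale.

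The labels state no pairing by replicate number. Deviations of same-numbered libraries correlated between -0.18 and 0.34, and those of differently numbered libraries between -0.36 and 0.39. With 3 libraries per group this cannot decide whether libraries were paired. With the replicate block Solyc09g075440.4 had a log2 fold change of 0.60 after ABA (adjusted p = 0.018). With 3 libraries per group, a change within the intervals given for each gene could have been missed.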
